A study of Mus musculus with 6 samples.

Results

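The miR-137, miR-138 and miR-135 families are microRNAs (miRNAs) that act in neurons at or near the synapse, and all rows of the deposited small RNA table whose names begin with miR-137, miR-138, miR-135a or miR-135b were taken as members. The rule used names only and no measured value. It found 10 of the 1364 miRNAs in the table: 2 of miR-137, 3 of miR-138, 3 of miR-135a and 2 of miR-135b, and all 10 had counts in all 6 libraries. The tissue was the nucleus accumbens (NAc), a reward region of the ventral striatum, from adult male C57BL/6N mice bought at 7 to 8 weeks of age. In the morphine group, mice received morphine (10 mg/kg, i.p.) and saline in alternating sessions over 6 days of conditioned place preference (CPP) training, in which one compartment of a box is paired with the drug, and in the saline group they received saline. The NAc was taken 0.5 h after the preference test on day 7. Each group had 3 libraries, and the series record gives 6 mice for them, while a legend of the study describes 1 mouse per library.

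A miRNA is cut from a hairpin, and either arm of the hairpin (5p or 3p) can be loaded into the silencing complex. The arm that is loaded more often is called the guide and the other the passenger. The seed, bases 2 to 8 of the mature miRNA, does most of the pairing with target mRNAs. miR-137 is known to act on dendrite growth and on the release of synaptic vesicles. miR-138 is found in dendrites, where it limits the size of spines by repressing Lypla1, an enzyme that removes palmitate from synaptic proteins. miR-135 is known to repress complexins, which clamp vesicle fusion, and the serotonin transporter and the serotonin 1A receptor.

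The mature sequences of 9 of the 10 members were matched by name in RefSeq (GRCm38.p6), and miR-135b-5p was not matched. They are shown because the seed separates the families and because the passenger arms tell the loci apart. In each the seed is in capitals.

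miR-137-3p: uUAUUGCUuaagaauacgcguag

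miR-137-5p: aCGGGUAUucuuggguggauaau

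miR-138-5p: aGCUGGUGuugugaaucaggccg

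miR-138-1-3p: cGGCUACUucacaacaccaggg

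miR-138-2-3p: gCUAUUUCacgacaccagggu

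miR-135a-5p: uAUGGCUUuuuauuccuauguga

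miR-135a-1-3p: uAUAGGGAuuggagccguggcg

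miR-135a-2-3p: uGUAGGGAuggaagccaugaa

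miR-135b-3p: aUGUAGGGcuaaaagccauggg

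All 9 seeds were different, and no other mouse miRNA matched by name in RefSeq carried one of them. The unmatched miR-135b-5p was not part of this comparison, and the 5p side of the Mir135b hairpin also holds the seed of miR-135a-5p. Among these 9 the GC content was lowest in miR-135a-5p (30.4%) and miR-137-3p (34.8%) and highest in miR-138-1-3p and miR-135a-1-3p (59.1% each). It was 43.5% in miR-137-5p, 47.6% in miR-135a-2-3p, 50% in miR-135b-3p, 52.4% in miR-138-2-3p and 56.5% in miR-138-5p.

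miR-138-5p and miR-135a-5p are each made from 2 hairpins that share the 5p arm, so their counts are sums over 2 loci, while the 3p arms differ between the loci. The longest run of bases shared by miR-138-1-3p (22 nt) and miR-138-2-3p (21 nt) was 9, and that of miR-135a-1-3p (22 nt) and miR-135a-2-3p (21 nt) was 7. The hairpins of miR-137 and of the loci of miR-138 and miR-135a are given with the mature arms in capitals, to show which arm is shared.

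Mir137: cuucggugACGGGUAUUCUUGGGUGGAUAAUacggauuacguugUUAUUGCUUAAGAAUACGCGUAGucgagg

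Mir138-1: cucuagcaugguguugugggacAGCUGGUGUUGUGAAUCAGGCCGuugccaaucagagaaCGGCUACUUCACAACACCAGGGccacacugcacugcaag

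Mir138-2: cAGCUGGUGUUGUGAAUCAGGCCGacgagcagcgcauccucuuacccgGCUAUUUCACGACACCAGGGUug

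Mir135a-1: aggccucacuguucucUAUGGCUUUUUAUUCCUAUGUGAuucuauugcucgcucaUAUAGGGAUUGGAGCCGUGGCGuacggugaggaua

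Mir135a-2: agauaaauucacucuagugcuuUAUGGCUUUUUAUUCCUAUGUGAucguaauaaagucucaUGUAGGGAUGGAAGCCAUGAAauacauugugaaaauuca

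In GRCm38.p6, Mir137 lies at chr3:118433857-118433929 on the plus strand, in an exon of the non-coding gene Gm26871 in the GENCODE vM21 annotation. Mir138-1 lies at chr9:122682876-122682974 on the plus strand, in an exon of Gm47135, and Mir138-2 at chr8:94324311-94324381 on the plus strand, in an exon of C78859. Mir135a-1 lies at chr9:106154124-106154213 on the plus strand, in an intron of D030055H07Rik and opposite an exon of Glyctk. Mir135a-2 lies at chr10:92072086-92072185 on the minus strand, in an intron of Rmst. Mir135b lies at chr1:132198088-132198184 on the plus strand, in an intron of Lemd1. The authors' table gives no coordinates.

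The libraries held between 4183333 and 9842050 counts, so that 3 counts correspond to between 0.305 and 0.717 counts per 1000000 (CPM). This limit and the intervals below cover counting error only, because PCR reads without molecular identifiers are not independent molecules. Levels below are TMM-scaled CPM, and the groups were compared with the quasi-likelihood test of edgeR over all 1364 miRNAs. A member was called by the study's criteria when its |log2 fold change| was at least 0.58 and its unadjusted p at most 0.05. Nothing in the records says that the libraries of a group came from separate cages or dissections, so the p-values measure only the spread between these libraries. Saline replicate 2 stood apart from saline replicates 1 and 3 over the whole table. The chi-square per degree of freedom of its counts against theirs was 3464 and 4399, and 199 between those libraries. Against the morphine libraries it was 3433 to 4699 for saline replicates 1 and 3, and 3507 to 4330 for saline replicate 2. Which saline libraries are typical was not tested. The members' results that rest on saline replicate 2 are given with and without it. That library was singled out after its values were seen, and p-values without it do not cover this choice. Across the 342 of 404 miRNAs with a mean of at least 10 CPM that had a RefSeq mature sequence, GC content and the log2 ratio of saline replicate 2 to the mean of saline replicates 1 and 3 (with a pseudocount of 1 CPM) had a Spearman's rho of -0.69. These points share the same libraries, and the value is a description. The mean that set the limit of 10 CPM included saline replicate 2, so miRNAs high in that library alone could pass it.

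The 4 leading members by mean CPM over the 6 libraries were miR-138-5p, miR-135a-5p, miR-137-3p and miR-135b-5p, at ranks 108, 139, 176 and 208 among the miRNAs. In the morphine group, miR-138-5p was the highest, at 478 to 736 CPM, followed by miR-137-3p at 144 to 195 CPM, miR-135a-5p at 125 to 163 CPM and miR-135b-5p at 94.2 to 117 CPM. The ranges of miR-137-3p and miR-135a-5p overlapped, and those of the other neighbours in this order did not. The other arms were lower. The order in the morphine group went on with miR-135a-2-3p (12.9 to 29.7 CPM), miR-138-2-3p (14 to 18.1 CPM), miR-138-1-3p (7.85 to 8.21 CPM), miR-137-5p (6.31 to 6.89 CPM), miR-135a-1-3p (2.32 to 4.54 CPM) and miR-135b-3p (0.879 to 1.66 CPM). Among these only the ranges of miR-135a-2-3p and miR-138-2-3p overlapped. The 9 mature sequences were 21 to 23 nt long, and CPM has no term for length.

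**Figure D1:**
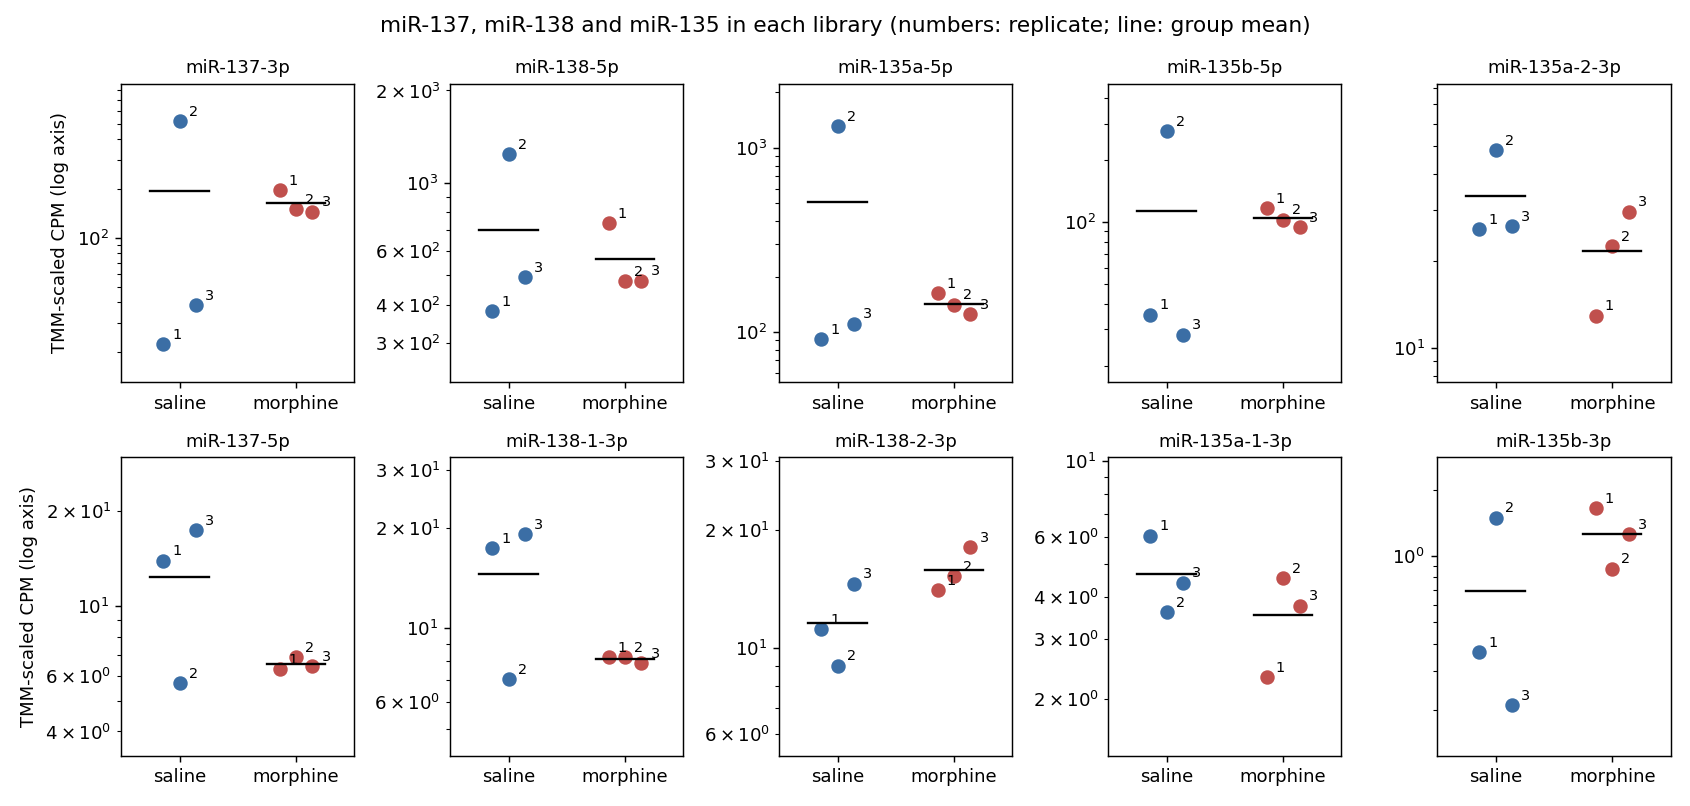
TMM-scaled CPM (log axis) of the 10 members in the 3 saline and 3 morphine libraries, with the replicate number beside each point and a line at each group mean. For miR-137-3p, miR-135a-5p and miR-135b-5p saline replicate 2 lies above and saline replicates 1 and 3 lie below all morphine libraries, and for miR-137-5p and miR-138-1-3p the order is the opposite.

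With all 6 libraries, 1 of the 10 members met the study's criteria, against 19.4% of all miRNAs tested. That member was miR-135a-5p, which was lower in the morphine group, so that 1 of the 10 was called lower and 0 higher, against 9.68% of all miRNAs in each direction. At an adjusted p under 0.05 edgeR called 0 of the 10, against 5.21% of all miRNAs, and 1 of the 10 had an unadjusted p under 0.05. The Wald test of DESeq2 also called 0, but gave no p for miR-137-3p, miR-135a-5p and miR-135b-5p, whose counts its check for outlying samples set aside. The TMM-scaled values of 0 of the 10 members were free of overlap between the groups, against 22.1% of all miRNAs, 9.90% lower and 12.2% higher in the morphine group. Over the 10 the median log2 fold change was -0.36, and over all miRNAs it was -0.15. The NAc was sequenced in bulk, so fewer cells of a type and less of a miRNA per cell cannot be told apart.

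miR-137-3p, the guide arm of miR-137, was at 22.1, 518 and 38.4 CPM in saline replicates 1, 2 and 3 and at 195, 149 and 144 CPM in morphine replicates 1, 2 and 3. Saline replicate 2 was above and the other saline libraries were below all morphine libraries, so the groups overlapped. The log2 fold change was -0.24 ± 0.74 (SE), with an adjusted p of 0.859 in edgeR. The mean ± SD of 3 libraries was 193 ± 282 CPM for saline and 163 ± 27.9 CPM for morphine. Without saline replicate 2 it was 2.42 ± 0.31 (SE), with an adjusted p of 9.84e-12 in edgeR, and the direction turned.

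miR-137-5p, the passenger arm of the same hairpin, was at 13.9, 5.70 and 17.4 CPM in the saline libraries and at 6.31, 6.89 and 6.44 CPM in the morphine libraries. Here saline replicate 2 was the lowest of the 6 libraries, and the other saline libraries were the highest. The log2 fold change was -0.92 ± 0.59 (SE), with an adjusted p of 0.458 in edgeR. Without saline replicate 2 it was -1.26 ± 0.42 (SE), with an adjusted p of 0.0107 in edgeR. Thus in saline replicates 1 and 3 the guide arm was lower and the passenger arm higher than in each morphine library.

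miR-138-5p, the guide arm that both Mir138 hairpins give, was at 380, 1238 and 491 CPM in the saline libraries and at 736, 478 and 479 CPM in the morphine libraries. The groups overlapped, with saline replicate 2 the highest of the 6 and saline replicate 1 the lowest. The log2 fold change was -0.32 ± 0.50 (SE), with an adjusted p of 0.731 in edgeR and, without saline replicate 2, 0.37 ± 0.26 (SE), with an adjusted p of 0.311 in edgeR. Among the 4 leading members it had the smallest ratio of saline replicate 2 to the mean of saline replicates 1 and 3, 2.84.

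The passenger arms of miR-138 come from separate loci and had different orders of the libraries. miR-138-1-3p was at 17.4, 7.05 and 19.2 CPM in the saline libraries and at 8.19, 8.21 and 7.85 CPM in the morphine libraries, with saline replicate 2 below and the other saline libraries above all morphine libraries. It had a log2 fold change of -0.85 ± 0.58 (SE), with an adjusted p of 0.466 in edgeR and, without saline replicate 2, -1.18 ± 0.41 (SE), with an adjusted p of 0.0148 in edgeR. miR-138-2-3p was at 11.2, 9.00 and 14.6 CPM in the saline libraries and at 14, 15.2 and 18.1 CPM in the morphine libraries. Only saline replicate 3 reached into the range of the morphine libraries, and the log2 fold change was 0.44 ± 0.55 (SE), with an adjusted p of 0.641 in edgeR.

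miR-135a-5p, the guide arm of both Mir135a hairpins, was at 91.0, 1313 and 111 CPM in the saline libraries and at 163, 140 and 125 CPM in the morphine libraries. It was 13 times as high in saline replicate 2 as the mean of the other saline libraries, and 18 of the 404 miRNAs with a mean of at least 10 CPM, itself included, had as high a ratio. For miR-137-3p this ratio was 17.1 (14 of the 404) and for miR-135b-5p it was 8.73 (28 of the 404). The miRNAs were counted by ratios with a pseudocount of 1 CPM, while the printed ratios have none. Some miRNAs were among the 404 only through saline replicate 2, such as miR-219a-5p, so these counts depend in part on the limit of 10 CPM. The log2 fold change of miR-135a-5p was -1.83 ± 0.69 (SE), with an unadjusted p of 0.0181 and an adjusted p of 0.142 in edgeR, which met the study's criteria. Without saline replicate 2 it was 0.50 ± 0.30 (SE), with an adjusted p of 0.225 in edgeR, so the direction turned and the call was lost. The call was also lost without morphine replicate 1, where the log2 fold change was -1.80.

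miR-135b-5p is the guide arm of Mir135b and belongs to the miR-135 family. It was at 35.3, 278 and 28.3 CPM in the saline libraries and at 117, 103 and 94.2 CPM in the morphine libraries, again with saline replicate 2 above and the others below all morphine libraries. The log2 fold change was -0.12 ± 0.65 (SE), with an adjusted p of 0.930 in edgeR, and without saline replicate 2 it was 1.72 ± 0.32 (SE), with an adjusted p of 3.88e-06 in edgeR. miR-135a-5p and miR-135b-5p are close paralogs, and how reads that match both were counted is not given in the sources used here, so their separate values are uncertain.

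The 3p arms of miR-135 were low. miR-135a-2-3p, from the hairpin in Rmst, was at 25.8, 48.6 and 26.4 CPM in the saline libraries and at 12.9, 22.6 and 29.7 CPM in the morphine libraries, and the groups overlapped. The fitted log2 fold change was -0.63 ± 0.54 (SE), with an adjusted p of 0.556 in edgeR. miR-135a-1-3p, from the hairpin opposite Glyctk, had counts of 33, 24 and 42 for saline against 21, 31 and 24 for morphine, which gave a log2 fold change of -0.40 ± 0.64 (SE), with an adjusted p of 0.732 in edgeR. miR-135b-3p had 2, 10 and 2 counts against 15, 6 and 8, a log2 fold change of 0.88 ± 0.94 (SE), with an adjusted p of 0.584 in edgeR. Against saline replicates 1 and 3 alone, the morphine libraries had 29 counts and the saline libraries 4. Per library total and without TMM scaling this was a ratio of 3.35 with an exact 95% counting interval of 1.17 to 13.1, and on the TMM-scaled CPM the ratio of means was 4.39.

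**Figure D2:**
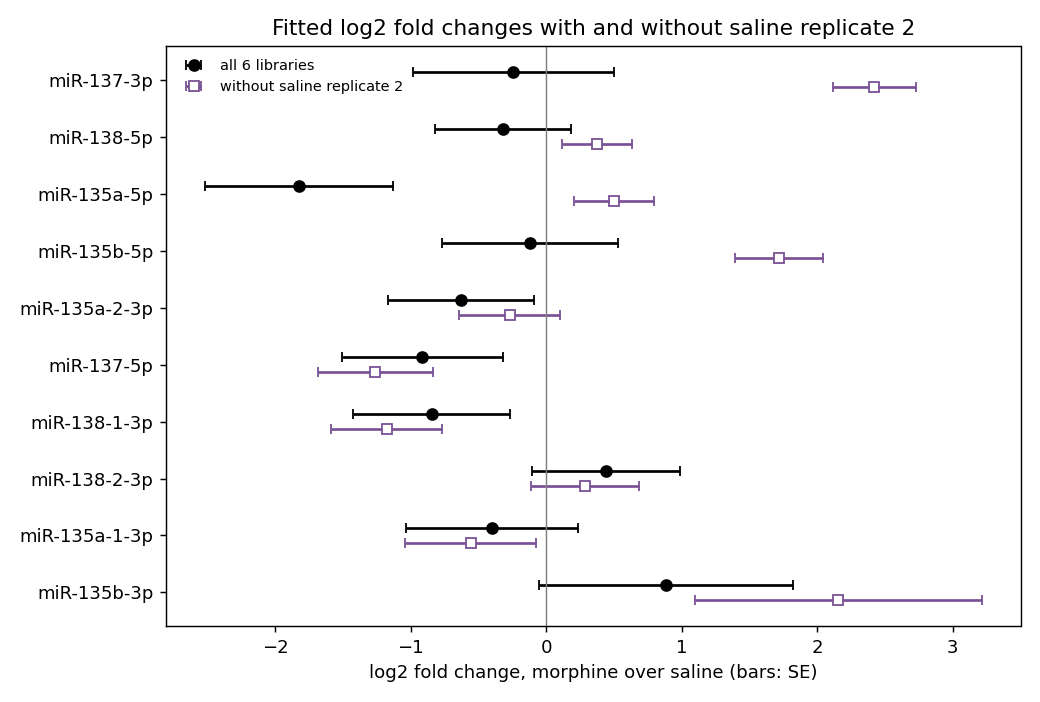
Fitted log2 fold changes (morphine over saline, bars are SE) of the 10 members with all 6 libraries (filled circles) and without saline replicate 2 (open squares). miR-137-3p moves from -0.24 to 2.42, miR-135b-5p from -0.12 to 1.72 and miR-135a-5p from -1.83 to 0.50, while miR-137-5p and miR-138-1-3p stay below 0.

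Without saline replicate 2, 5 of the 10 members met the study's criteria: miR-137-3p, miR-135b-5p and miR-135b-3p were higher and miR-137-5p and miR-138-1-3p lower in the morphine group. Of all miRNAs tested without that library, 37.0% met them. At an adjusted p under 0.05, 4 of the 10 were called, against 29.1% of all. The values of 6 of the 10 did not overlap between the groups, against 48.9% of all. The median log2 fold change of the members was then 0.33 and that of all miRNAs 0.20.

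GC content moved with these differences. Among the 62 miRNAs with a GC content below 40% the median log2 fold change without saline replicate 2 was 2.18, and miR-137-3p (2.42) was near it while miR-135a-5p (0.50) was below it. The median was 0.68 in the 124 miRNAs from 40% to 50%, where miR-135a-2-3p was at -0.27, -0.45 in the 107 from 50% to 60%, where miR-138-1-3p was at -1.18, miR-138-2-3p at 0.29 and miR-138-5p at 0.37, and -1.28 in the 49 at 60% or above. The Spearman's rho of GC content and log2 fold change over the 342 miRNAs was -0.60 without saline replicate 2 and -0.34 with all libraries, and it is given as a description. Members with a mean below the CPM limit were not among the 342 miRNAs. Of these members, miR-137-5p (43.5% GC) was at -1.26 without saline replicate 2, against the median of 0.68 from 40% to 50%. In the same fit miR-135b-3p (50% GC, on few counts) was at 2.16 and miR-135a-1-3p (59.1% GC) at -0.56. The median from 50% to 60% was -0.45. The part of GC content in the values of the members was not tested.

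**Figure D3:**
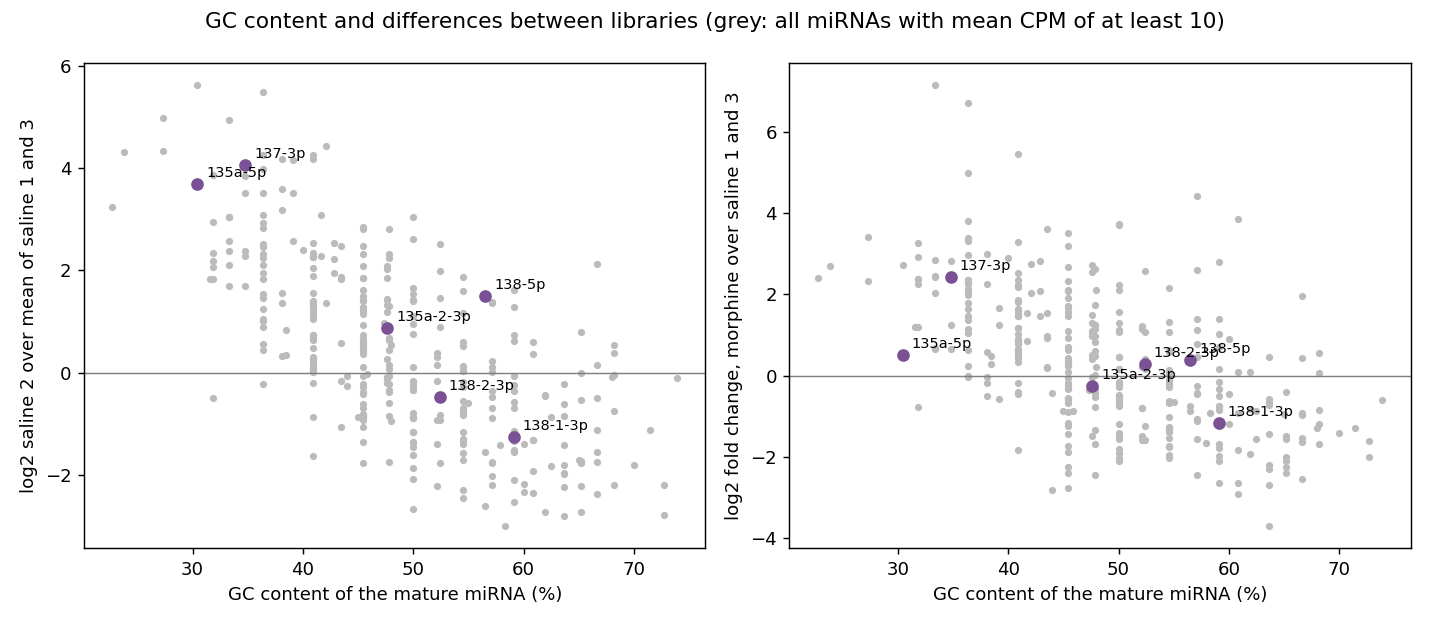
GC content of the mature miRNA (%) against the log2 ratio of saline replicate 2 to the mean of saline replicates 1 and 3 (left) and against the log2 fold change of morphine over saline without saline replicate 2 (right), for 342 miRNAs (grey) with the members among them that have a mean of at least 10 CPM in purple. miR-137-3p and miR-135a-5p sit near the top left of the left panel, and in the right panel miR-135a-5p lies below most miRNAs of like GC content.

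A ratio of 2 miRNAs within the same library does not depend on the scaling between libraries, and 10 such ratios between arms, loci and families were compared. The test was an exact two-sided permutation test of the difference in mean log2 ratio, for which the smallest p that 3 libraries against 3 allow is 0.1. For 3 of the 10 ratios the groups did not overlap and this p was reached, and with adjustment over the 10 the smallest value was 0.333. No ratio could therefore pass a threshold of 0.05. No share over ratios of other miRNAs was computed to set beside the 3 of 10. Of single miRNAs, 22.1% were free of overlap between the groups. The ratio of miR-135a-5p to miR-135b-5p and that of miR-137-3p to miR-135a-5p share a member and are not independent.

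The first of the 3 ratios without overlap was that of miR-135a-5p to miR-135b-5p. It was 2.58, 4.73 and 3.91 in the saline libraries, against 1.39, 1.37 and 1.32 in the morphine libraries. All saline libraries, saline replicate 2 included, were above all morphine libraries. Its mean log2 ± SD over 3 libraries was 1.86 ± 0.45 for saline and 0.44 ± 0.04 for morphine, a difference of -1.41 (exact permutation p = 0.1, adjusted p = 0.333). As a share of both, miR-135a-5p made up 72.0% (95% Wilson interval 68.6 to 75.2), 82.5% (81.8 to 83.3) and 79.6% (77.4 to 81.7) in the saline libraries. It made up 58.2% (56.3 to 60.1), 57.7% (55.4 to 60.1) and 56.9% (54.3 to 59.5) in the morphine libraries. Without saline replicate 2 the difference was -1.22 (exact permutation p = 0.2, the smallest that 3 against 2 allow). How reads that match both miRNAs were counted is not given in the sources used here, and the Wilson intervals do not cover this.

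The ratio of miR-137-3p to miR-135a-5p, which had the lowest GC content among the 9 members with a matched sequence, was 0.243, 0.395 and 0.347 in the saline libraries, against 1.20, 1.06 and 1.16 in the morphine libraries. It was thus below 1 in all saline libraries and above 1 in all morphine libraries. The difference in mean log2 ratio was 1.82 (exact permutation p = 0.1, adjusted p = 0.333), and 1.97 without saline replicate 2.

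The ratio of miR-138-1-3p to miR-138-2-3p compares the passenger arms of the Mir138 loci. It was 1.56, 0.783 and 1.32 in the saline libraries, against 0.583, 0.538 and 0.435 in the morphine libraries. The groups did not overlap, with saline replicate 2 the nearest to the morphine libraries. The difference in mean log2 ratio was -1.18 (exact permutation p = 0.1, adjusted p = 0.333), and -1.47 without saline replicate 2. As a share of both arms, miR-138-1-3p took 60.9% (95% Wilson interval 53.1 to 68.2), 43.9% (34.9 to 53.4) and 56.8% (51.4 to 62.1) in the saline libraries. It took 36.8% (30.5 to 43.7), 35% (28.0 to 42.7) and 30.3% (23.8 to 37.7) in the morphine libraries. The share in saline replicate 2 rested on 107 counts and lay between those of the other saline libraries and those of the morphine libraries, and its interval overlapped the intervals of both. The corresponding ratio for miR-135a, miR-135a-1-3p to miR-135a-2-3p, was 0.234, 0.0741 and 0.167 against 0.179, 0.201 and 0.127, with a difference in mean log2 ratio of 0.23 (exact permutation p = 0.8) that turned to -0.24 without saline replicate 2.

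**Figure D4:**
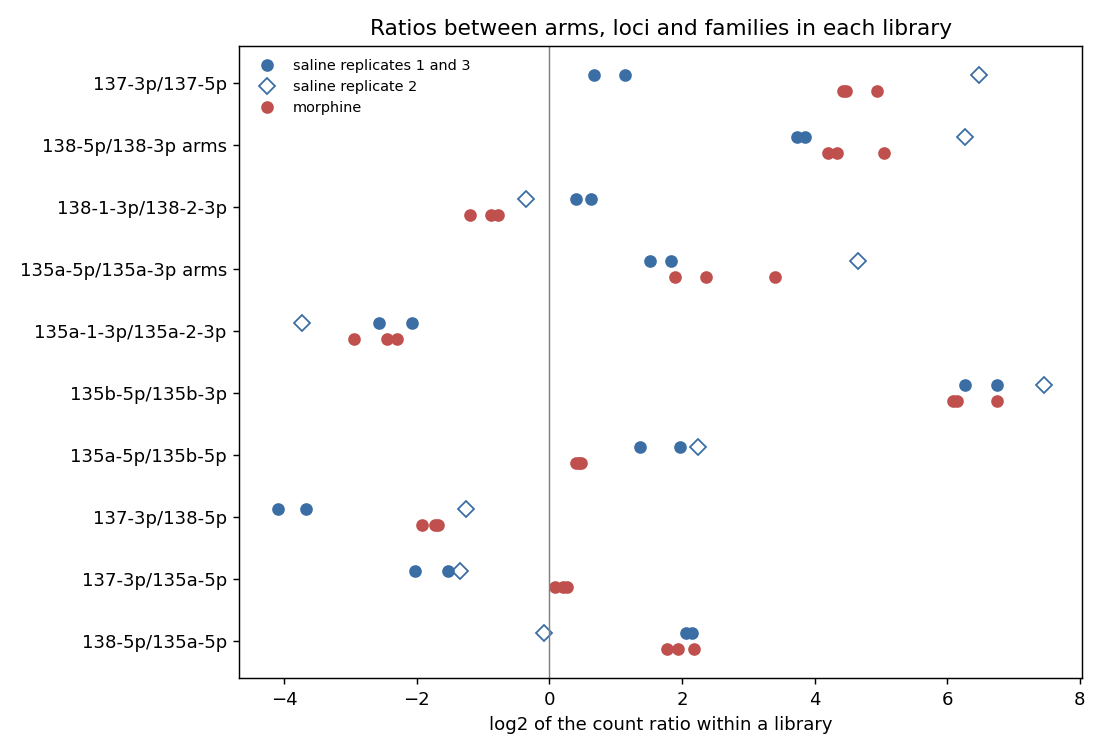
Log2 of 10 within-library count ratios (a pseudocount of 0.5 was added to each count) in the saline libraries (blue, replicate 2 as an open diamond) and the morphine libraries (red). The groups are separate for miR-135a-5p to miR-135b-5p, miR-137-3p to miR-135a-5p and miR-138-1-3p to miR-138-2-3p, and saline replicate 2 lies beyond the morphine libraries for the ratios of guide to passenger arms.

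The ratios of guide to passenger arm overlapped between the groups, and saline replicate 2 was the highest of the 6 libraries in each family. The ratio of miR-137-3p to miR-137-5p varied most. It was 1.59, 90.9 and 2.20 in the saline libraries, against 30.9, 21.7 and 22.4 in the morphine libraries. miR-137-3p made up 61.4% (95% Wilson interval 54.5 to 67.9) and 68.8% (64.7 to 72.6) of both arms in saline replicates 1 and 3, against 98.9% (98.5 to 99.2) in saline replicate 2 and 95.6% to 96.9% in the morphine libraries. The difference in mean log2 ratio was 1.85 (exact permutation p = 0.4, adjusted p = 0.667), and 3.71 without saline replicate 2.

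For miR-138 the ratio of the 5p arm to both 3p arms was 13.3, 77.2 and 14.5 in the saline libraries, against 33.1, 20.4 and 18.5 in the morphine libraries. For miR-135a it was 2.86, 25.2 and 3.59 against 10.6, 5.18 and 3.72. In both families saline replicates 1 and 3 were below all morphine libraries and saline replicate 2 above them. The differences in mean log2 ratio were -0.09 and -0.11, each with an exact permutation p of 1.0, and without saline replicate 2 they were 0.74 and 0.88. For miR-135b the ratio ranged from 96.5 to 185.2 against 70.3 to 117 (difference -0.50, exact permutation p = 0.2, and -0.19 without saline replicate 2), with at most 15 counts of the 3p arm in a library. Between families, the ratio of miR-137-3p to miR-138-5p had a difference of 1.24 (exact permutation p = 0.4), and 2.11 without saline replicate 2. That of miR-138-5p to miR-135a-5p had a difference of 0.59 (exact permutation p = 0.8), which turned to -0.14 without that library.

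The miRNAs nearest to each leading member in pattern were found by the root mean square difference of log2(CPM + 1), centred on each miRNA's mean over the 6 libraries, among 404 miRNAs. For miR-137-3p they were miR-29b-3p (0.21), miR-376c-3p (0.24) and miR-9-3p (0.25). For miR-138-5p they were miR-16-5p (0.095), miR-421-3p (0.21) and miR-410-3p (0.23). miR-872-5p (0.25), miR-16-1-3p (0.26) and miR-21a-5p (0.32) were nearest to miR-135a-5p, and miR-190a-5p (0.27), miR-185-5p (0.27) and miR-20a-5p (0.29) to miR-135b-5p. All 12 had their highest level in saline replicate 2, as did the 4 leading members, so this followed largely from how the 12 were chosen. The same measure between miR-135a-5p and miR-135b-5p was 0.75, and between miR-137-3p and miR-135b-5p it was 0.50, the lowest among the 4 leading members.

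Other miRNAs with a known role in neurons or at synapses were set beside the members. Of 16 such miRNAs 6 met the study's criteria with edgeR, against 19.4% of all miRNAs, and their median log2 fold change was -0.48. miR-124-3p, miR-125a-5p, miR-125b-5p, miR-181a-5p and miR-485-5p were lower in the morphine group, with log2 fold changes of -1.88, -1.66, -1.77, -1.58 and -1.92. miR-218-5p was higher, with a log2 fold change of 1.53. With adjustment 4 of the 16 were called, against 5.21% of all. miR-485-5p, a repressor of the vesicle protein SV2A, was at 1496, 417 and 1328 CPM against 216, 319 and 323 CPM, without overlap between the groups. Without saline replicate 2, 12 of the 16 met the criteria, 7 of them higher and 5 lower, against 37.0% of all miRNAs.

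Marker miRNAs of the cell types that a dissected NAc can hold were all listed in the table, and their summed CPM are given for the saline and the morphine libraries. The 3 neuronal markers were at 127126 to 270801 and 176647 to 204976 CPM, and the 4 oligodendrocyte markers at 2052 to 2183 and 1815 to 2290 CPM, with both ranges overlapping. Most of the neuronal sum was miR-9-5p (60964 to 211199 and 95872 to 112157 CPM) and miR-128-3p (55107 to 67770 and 67659 to 104566 CPM). miR-124-3p alone was at 4495 to 7795 and 1324 to 1730 CPM, without overlap between the groups. The 2 endothelial markers were at 1485 to 5002 and 10984 to 16264 CPM. The 5 markers of microglia and leukocytes were at 157 to 275 and 858 to 1072 CPM, and the 4 erythroid markers at 216 to 312 and 360 to 572 CPM. In the former miR-146a-5p alone was at 142 to 237 and 835 to 1054 CPM, and in the latter miR-451a alone was at 60.2 to 163 and 218 to 423 CPM. The 7 markers of choroid plexus and ciliated epithelium were at 1968 to 2772 and 1016 to 1162 CPM, of which miR-204-5p alone was at 1225 to 2576 and 627 to 744 CPM. By the study's criteria 1 of 3, 1 of 4, 1 of 2, 1 of 5, 1 of 4 and 4 of 7 were called, in that order, against 19.4% of all miRNAs. Of all these markers 9 were called, 15 without saline replicate 2 and 6 without morphine replicate 1. The neuronal one was miR-124-3p and the oligodendrocyte one miR-219a-5p (log2 fold change -3.69), which was at 63.9 CPM in saline replicate 2 and at most at 3.98 CPM in the other libraries. Its log2 fold change without that library was -0.50 (unadjusted p = 0.378 in edgeR), and the call was lost. The endothelial miR-126a-3p, the leukocyte miR-146a-5p and the erythroid miR-451a were higher in the morphine group, with log2 fold changes of 2.42, 2.29 and 1.57. Other markers of these lists had negative values and were not called. These were miR-126a-5p (-0.96), miR-142a-3p (-0.39), miR-142a-5p (-0.67), miR-144-3p (-1.31), miR-144-5p (-1.16) and miR-486a-5p (-0.20). When saline replicate 2 was left out they were 1.25, 0.39, 0.68, 1.35, 1.07 and -0.65 in the same order, and miR-126a-5p and miR-486a-5p met the study's criteria. The values of miR-223-3p (0.41) and miR-155-5p (0.89) were positive and not called either. Of the choroid plexus and epithelial markers miR-204-5p was lower (-1.50) and miR-200a-3p (2.57), miR-200b-3p (1.84) and miR-429-3p (2.77) were higher, the last 3 with overlap between the groups. These 3 were highest in morphine replicate 1, at 123, 74.8 and 23.5 CPM, against at most 22.3, 17.1 and 4.71 CPM in the other morphine libraries. From the same list miR-34c-5p (-0.29), miR-449a-5p (0.69) and miR-34b-5p (0.17) were not called. Without saline replicate 2, 7 of the 7 met the study's criteria, 6 higher and 1 lower, against 37.0% of all miRNAs. miR-34b-5p, a marker of ciliated cells, had no count in saline replicates 1 and 3, and miR-144-3p, an erythroid marker, had none in morphine replicate 2. The part of these differences in the values of the members was not tested.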

How the data were processed

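Small RNA libraries of the NAc of saline and morphine CPP mice (3 per group, each from 3 μg of total RNA) were assigned to groups and replicates from the sample titles. The authors discarded low-quality reads, reads with adapters or poly-N and reads outside 15 to 35 nt, filtered the rest with Bowtie against Silva, GtRNAdb, Rfam and Repbase, and compared them with miRBase. They deposited raw read counts per mature miRNA for each library. The deposited TPM values were checked to be counts per 1000000 counts of the library. The tool behind the study's DEmiRNA calls, the genome build and the miRBase release are not given in the sources used here.

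Counts were scaled with TMM and fitted with edgeR 4.0.16 in R 4.3.3 (quasi-likelihood F test without covariates on the 1364 miRNAs that had a count), with Benjamini-Hochberg adjustment over all. SEs came from the fitted model's information matrix, scaled by the moderated dispersion. Ratios used a pseudocount of 0.5 and scipy 1.17.1. Alternatives were other scalings, DESeq2 1.42.0, filters, exclusions, the replicate number as a block and each library left out. Code was tested on simulated data. The members and lists were chosen with earlier results of these data known. Named were all members, the called miRNAs of the lists, and the 3 nearest in pattern to each of 4 leading members. The values of the uncalled markers, the CPM of miR-485-5p and miR-124-3p and the fit without saline replicate 2 were singled out after they were seen. The replicates had different counts, with a chi-square per degree of freedom of at least 91.1 for every pair. Hairpins were placed with RefSeq GRCm38.p6 and GENCODE vM21.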

Additional observations from a re-analysis of the deposited data

How the results depend on the processing

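Of the 146 refitted log2 fold changes of the members, 132 kept their direction and their side of the study's criteria. Scaling by library totals called 2 members under the study's thresholds, miR-135a-5p and miR-137-5p (log2 fold change -1.37), of which miR-135a-5p also passed with adjustment, 1 member, with 160 of all miRNAs at an adjusted p under 0.05 against 71. Upper quartile scaling called 1 member and 153 miRNAs at an adjusted p under 0.05. With these scalings the median log2 fold change of all miRNAs was -0.40 and -0.35 against -0.15, and 34.9% and 37.7% of the calls were higher in the morphine group against 50%. DESeq2 called 0 members, with no p for 3 of them, and 156 miRNAs with adjustment. The filterByExpr filter, under which miR-135b-3p was not tested, and a minimum of 10 counts in total each left 0 members called, with log2 fold changes of miR-135a-5p of -1.70 and -1.89, and the minimum left 28 miRNAs with adjustment. With miRBase names only there were 110. The cause of these shifts was not tested.

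The groups share replicate numbers, but same-numbered libraries had deviations that correlated at -0.23, -0.28 and 0.14 over 899 miRNAs. With the replicate block 0 members and 32 miRNAs (with adjustment) were called, and the log2 fold changes of miR-135a-5p, miR-135b-5p and miR-137-3p were -0.60, 0.76 and 1.26. With 3 pairs the mean difference of a ratio is by construction the same with and without the block, so its sign could not change, and the smallest exact p is 0.25.

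Leaving out each library in turn called 0 to 5 members by the study's criteria and 0 to 4 with adjustment, 176 to 492 and 0 to 386 of all miRNAs, 6 to 12 of the other synaptic miRNAs and 6 to 15 of the marker miRNAs. The highest counts were those without saline replicate 2. The log2 fold changes ranged from -2.21 to 0.50 (miR-135a-5p), 0.49 to 2.16 (miR-135b-3p, resting on 2 counts each in saline replicates 1 and 3), -0.48 to 1.72 (miR-135b-5p), -0.66 to 2.42 (miR-137-3p), -1.26 to -0.52 (miR-137-5p), -1.18 to -0.53 (miR-138-1-3p) and -0.52 to 0.37 (miR-138-5p). Differences of log2 ratios ranged from -0.53 to 0.74 (miR-138 arms), -0.69 to 0.88 (miR-135a arms), -0.24 to 0.58 (miR-135a-1-3p to miR-135a-2-3p) -0.14 to 0.97 (miR-138-5p to miR-135a-5p) and 0.69 to 2.11 (miR-137-3p to miR-138-5p). A pseudocount of 1 and the deposited TPM changed no sign.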
